A study of Mus musculus with 17 samples.

Results

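The response of the liver transcriptome to GW3965 was compared between 2 genotypes as a difference of differences. For each gene, the log2 change with GW3965 in control livers was subtracted from the log2 change in livers labelled Gata4LKO, so that a positive value means a more positive response in the Gata4LKO-labelled livers. All 17 of the 17 libraries of the series entered this difference of responses. Of the 24676 genes in the deposited table, 13379 reached a normalized count of 10 in 4 or more libraries and were tested. Liver RNA came from male mice of mixed strain, aged 11 weeks, that all carried Gata4 fl/fl, a Gata4 gene with both alleles floxed. That age is the one in the sample labels, whereas the design text of the series gives 9 weeks. At 10 weeks the Gata4LKO mice had received AAV8-Tbg-Cre, a virus that makes Cre recombinase from the hepatocyte promoter Tbg, and the control mice an empty AAV8. After 1 week the mice were given GW3965 (40 mg/kg in canola oil) or vehicle, dimethylsulfoxide (DMSO) in canola oil, by gavage 17 h and again 8 h before sacrifice, which followed a fast of 4 h. The groups were Gata4LKO with GW3965 (n = 5), Gata4LKO with vehicle (n = 4), control with GW3965 (n = 4) and control with vehicle (n = 4). Cre was given to the Gata4LKO mice alone, so Cre itself and the loss of Gata4 cannot be told apart.

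The liver X receptors LXRα (Nr1h3) and LXRβ (Nr1h2) are nuclear receptors that sense oxysterols and, paired with the retinoid X receptor, switch on genes of sterol export, lipoprotein remodelling and fatty acid synthesis. GW3965 is a synthetic agonist of both, and in mouse liver it is known for raising Srebf1 and the sterol transporters. GATA4 is a zinc-finger transcription factor of endoderm-derived and other tissues that, with HNF4A, acts on the shared promoter of human ABCG5 and ABCG8.

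Libraries held 11.76 to 22.05 M reads in genes. Mitochondrially encoded transcripts took 15.6% to 32.6% of the counts in 5 libraries and 6.06% to 7.26% in the other 12. These 5 were 2 of 5 Gata4LKO GW3965 libraries (replicates 17 and 18), 0 of 4 Gata4LKO vehicle, 2 of 4 control GW3965 (replicates 10 and 13) and 1 of 4 control vehicle libraries (replicate 1). The hepatocyte markers Alb, Apoa1, Ttr, Hnf4a, Cps1 and Serpina1a were high in every library, with Alb at 895197 to 1722491 normalized counts. Gata4 itself had 260, 194, 244, 160 and 239 normalized counts in Gata4LKO GW3965 libraries and 181, 137, 234 and 223 in Gata4LKO vehicle libraries. It had 164, 254, 258 and 209 in control GW3965 and 128, 169, 183 and 132 in control vehicle libraries. The targeted gene was thus not lower in the libraries labelled Gata4LKO, and its difference of responses was -0.34 ± 0.28 (SE; limma adjusted p = 0.997). The floxed exons are not named in the labels, so a count over the whole gene checks the genotype only in part.

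The groups follow the sample titles. In 8 libraries, all those of the Gata4LKO vehicle and control GW3965 groups, the separate treatment label contradicts the title. Scd2, a stearoyl-CoA desaturase raised by LXR agonists, had 470, 360, 528, 362 and 517 normalized counts in libraries titled Gata4LKO GW3965 and 88.8, 87.3, 89.5 and 71.0 in those titled Gata4LKO vehicle. It had 493, 404, 597 and 311 in those titled control GW3965 and 56.8, 89.1, 69.1 and 91.2 in those titled control vehicle. Every library titled GW3965 was above every library titled vehicle. The same 8 libraries carry the minus sign in the difference of responses. Anything else these 8 share therefore cannot be told apart from a difference of responses.

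The question was which genes answered GW3965 differently in the 2 genotypes, and 2 of 13379 genes did so at a Benjamini-Hochberg adjusted p below 0.05 (0.0149%), the threshold for a call throughout. Both, Sult1e1 and the pseudogene Gm5345, had a more positive response in Gata4LKO-labelled livers, and 0 genes were called with a more negative one in limma. At an unadjusted limma p below 0.05 there were 344 genes with a more positive response (2.57%) and 278 with a more negative one (2.08%), 622 in all (4.65%). On the recovered reads, edgeR's quasi-likelihood test called 0 genes (621 at an unadjusted p below 0.05) and DESeq2 called 26. The authors' deposited table held 26 genes at an adjusted p below 0.05 of 13655 with one (0.190%), 19 higher (0.139%) and 7 lower (0.0513%). DESeq2 on the recovered reads called the same 26 genes, so these lists are not separate results. The 2 genes called here were among those 26 in the authors' deposited table. All 26 had the same sign in the limma fit, which used the same libraries. The other 24 missed the limma threshold, among them Art2a (-4.90), Mfsd2a (2.06), Ces2a (-0.96), Il1r1 (1.28) and Lcn2 (2.27), whose log2 differences are given here from the authors' deposited table and whose limma values follow.

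The precision of the difference limited what could be seen. Its median standard error was 0.304 log2 units, against 0.209 for the response in Gata4LKO-labelled livers and 0.221 for that in control livers. For 7702 genes (57.6%) the 95% interval of the difference lay within 1 log2 unit of 0. Of all genes tested, 50.6% had a negative and 49.4% a positive difference, and the median was -0.0041 on the log2 scale. Thap2 was the 1 gene (0.00747%) whose 9 values in the Gata4LKO GW3965 and control vehicle libraries were all above those of the other 8 libraries. Its difference of responses was 0.86 (limma adjusted p = 0.305), and 0.875 in the authors' deposited table, which called it (adjusted p = 0.0313). All 9 values were below those of the other 8 libraries in 0 genes. Thap2 was picked out after its values were seen. How often a single group lay beyond all other libraries, or a pair of groups did not overlap, was not counted over all genes. Such statements elsewhere describe the libraries of the named gene only and do not measure an excess.

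**Figure D1:**
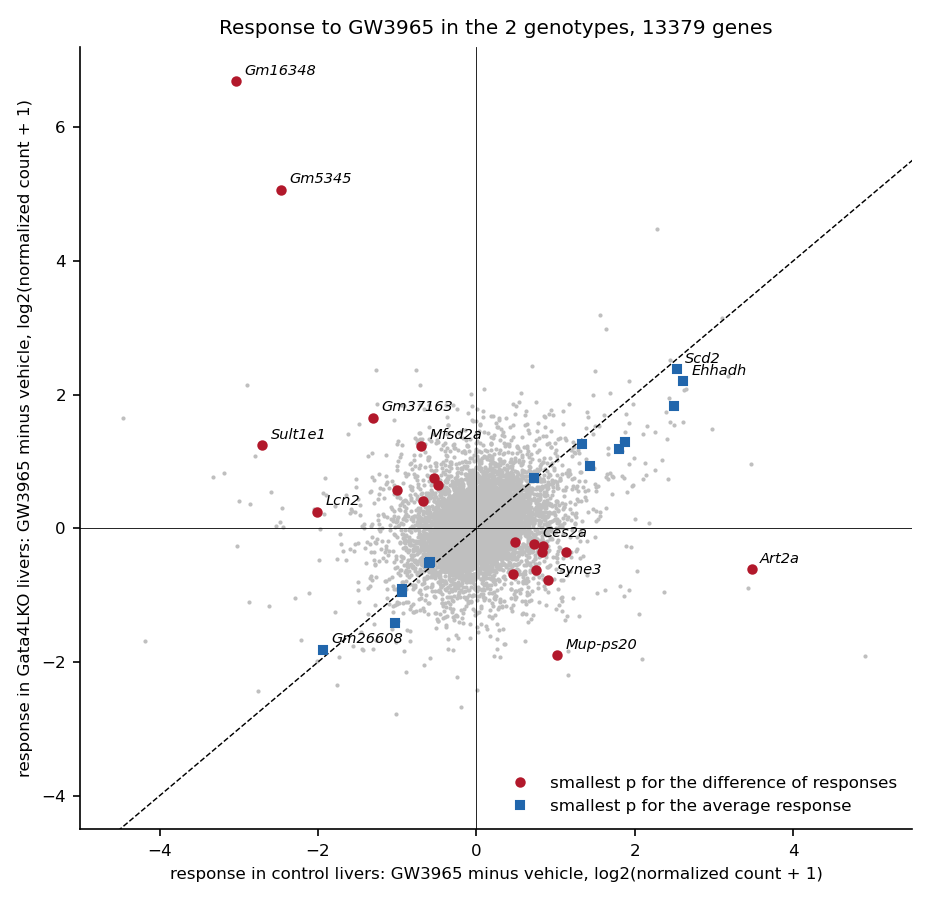
Response to GW3965 (log2 difference of normalized count + 1, GW3965 minus vehicle) in Gata4LKO-labelled livers (vertical axis) and control livers (horizontal axis) for 13379 genes, with genes of smallest p for the difference (red circles) and for the average response (blue squares); the dashed line marks equal responses. Sult1e1 lies at 1.25 and -2.70, far above the line, while average responders such as Scd2 lie near it.

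Sult1e1 encodes oestrogen sulfotransferase, which inactivates oestrogens by adding sulfate and is known in mice as a gene that LXR agonists can induce. It lies on chromosome 5, 87575969 to 87591594, minus strand (mm10, GENCODE M21; ENSMUSG00000029272). It had 18.1, 49.0, 26.8, 17.3 and 62.5 normalized counts in Gata4LKO GW3965 libraries and 8.68, 9.47, 17.2 and 15.8 in Gata4LKO vehicle libraries. It had 10.8, 30.0, 8.74 and 13.3 in control GW3965 libraries and 92.2, 90.2, 155 and 67.9 in control vehicle libraries. The 4 control vehicle libraries were above all other 13, whereas the lowest Gata4LKO GW3965 library lay just above the highest Gata4LKO vehicle library. Sult1e1 fell with GW3965 in control livers, by 2.70 ± 0.44 on the log2 scale (limma adjusted p = 0.00793). Its response was 1.25 ± 0.42 in Gata4LKO-labelled livers (limma adjusted p = 0.265). The difference of responses was 3.95 ± 0.60 (95% interval 2.68 to 5.22; limma adjusted p = 0.0374), and 4.15 ± 0.64 in the authors' deposited table (adjusted p = 9.41e-07). It ranged from 3.70 to 4.30 when single libraries were left out, with limma adjusted p of 0.0138 to 0.147. The call held without control GW3965 replicate 10 or 13 or Gata4LKO GW3965 replicate 14 or 17, and was lost without any 1 of the other 13 libraries. Without the 5 libraries rich in mitochondrial transcripts the value was 4.38 (limma adjusted p = 0.0642).

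The next sulfotransferase gene downstream on the same strand, Sult1d1, which sulfates catecholamines and small phenols, had the second largest test statistic among the drug metabolism genes. Its counts were 10285, 8499, 9605, 9801 and 6984 in Gata4LKO GW3965 libraries and 5388, 5479, 5286 and 7812 in Gata4LKO vehicle libraries. They were 6349, 5088, 7955 and 8682 in control GW3965 and 7851, 8982, 9517 and 9648 in control vehicle libraries. Both pairs of groups overlapped, and the difference of responses of 0.98 ± 0.24 was not called (limma adjusted p = 0.345). The promoters of the neighbours are shown because both genes had positive differences. Each line gives the 250 bases before the RefSeq start site (GRCm38.p6), 5′ to 3′ on the minus strand, chr5:87591612-87591861 for Sult1e1 and chr5:87569007-87569256 for Sult1d1. Capitals mark a nuclear receptor hexamer (GGTCA preceded by A or G) or a GATA word (GATA preceded by A or T and followed by A or G), both searched on either strand.
Sult1e1: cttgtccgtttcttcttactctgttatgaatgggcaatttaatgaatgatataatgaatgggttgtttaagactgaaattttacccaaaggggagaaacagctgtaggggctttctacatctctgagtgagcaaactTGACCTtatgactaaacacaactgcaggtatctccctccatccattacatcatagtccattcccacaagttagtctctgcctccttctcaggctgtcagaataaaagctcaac
Sult1d1: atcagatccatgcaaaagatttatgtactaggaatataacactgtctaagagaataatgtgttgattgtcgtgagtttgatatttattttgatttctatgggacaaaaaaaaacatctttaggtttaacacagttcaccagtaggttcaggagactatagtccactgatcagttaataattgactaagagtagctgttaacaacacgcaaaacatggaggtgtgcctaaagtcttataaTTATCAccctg
Sult1e1 held 1 receptor hexamer on the opposite strand, its first base at position -113 from the start site, and no GATA word. Sult1d1 held 1 GATA word on the opposite strand at -11 and no receptor hexamer. Among 32851 RefSeq promoters of this length, 26.5% held a GATA word, 23.8% a receptor hexamer, and 0.0152% the LXR-type direct repeat of AGGTCA with 4 bases between the copies, which neither gene held. A match describes letters in this window only.

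Gm5345 is a processed pseudogene on chromosome 8, 40853828 to 40855027, minus strand (ENSMUSG00000098050), whose reads could be shared with the gene it was copied from. It had 101, 40.9, 98.4, 23.1 and 56.9 normalized counts in Gata4LKO GW3965 libraries and 0.667, 0, 1.64 and 0.876 in Gata4LKO vehicle libraries. It had 0.833, 1.00, 35.8 and 43.8 in control GW3965 libraries (replicates 9, 10, 12 and 13) and 30.3, 49.0, 53.9 and 66.0 in control vehicle libraries. Values were thus near 0 in 6 libraries, all of Gata4LKO vehicle and 2 of control GW3965, and above 20 in the other 11. The difference of responses was 7.54 ± 1.18 (limma adjusted p = 0.0374), a size that depends on the pseudocount, since adding 5 in place of 1 gave 5.12 (limma adjusted p = 0.0480). Leaving out single libraries gave 6.79 to 8.32 (limma adjusted p 0.00442 to 0.147). The call held without control GW3965 replicate 12 or 13 or Gata4LKO GW3965 replicate 17, and was lost without any 1 of the other 14. Without the 5 libraries rich in mitochondrial transcripts it was 8.26 (limma adjusted p = 0.0674). The long noncoding RNA gene Gm16348, on the same chromosome at 41218139 to 41220894, plus strand, followed the same split. It had 155, 53.1, 153, 100 and 165 normalized counts in Gata4LKO GW3965 and 0.667, 0, 0 and 0 in Gata4LKO vehicle libraries. It had 0, 0, 43.7 and 195 in control GW3965 and 98.5, 64.6, 38.8 and 151 in control vehicle libraries. Gm16348 was not called (limma adjusted p = 0.0659), but was without control GW3965 replicate 13 (limma adjusted p = 0.00140) and in the authors' deposited table (adjusted p = 0.0102). Whether these libraries differ at that stretch of chromosome 8 in a way the labels do not give was not tested.

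**Figure D2:**
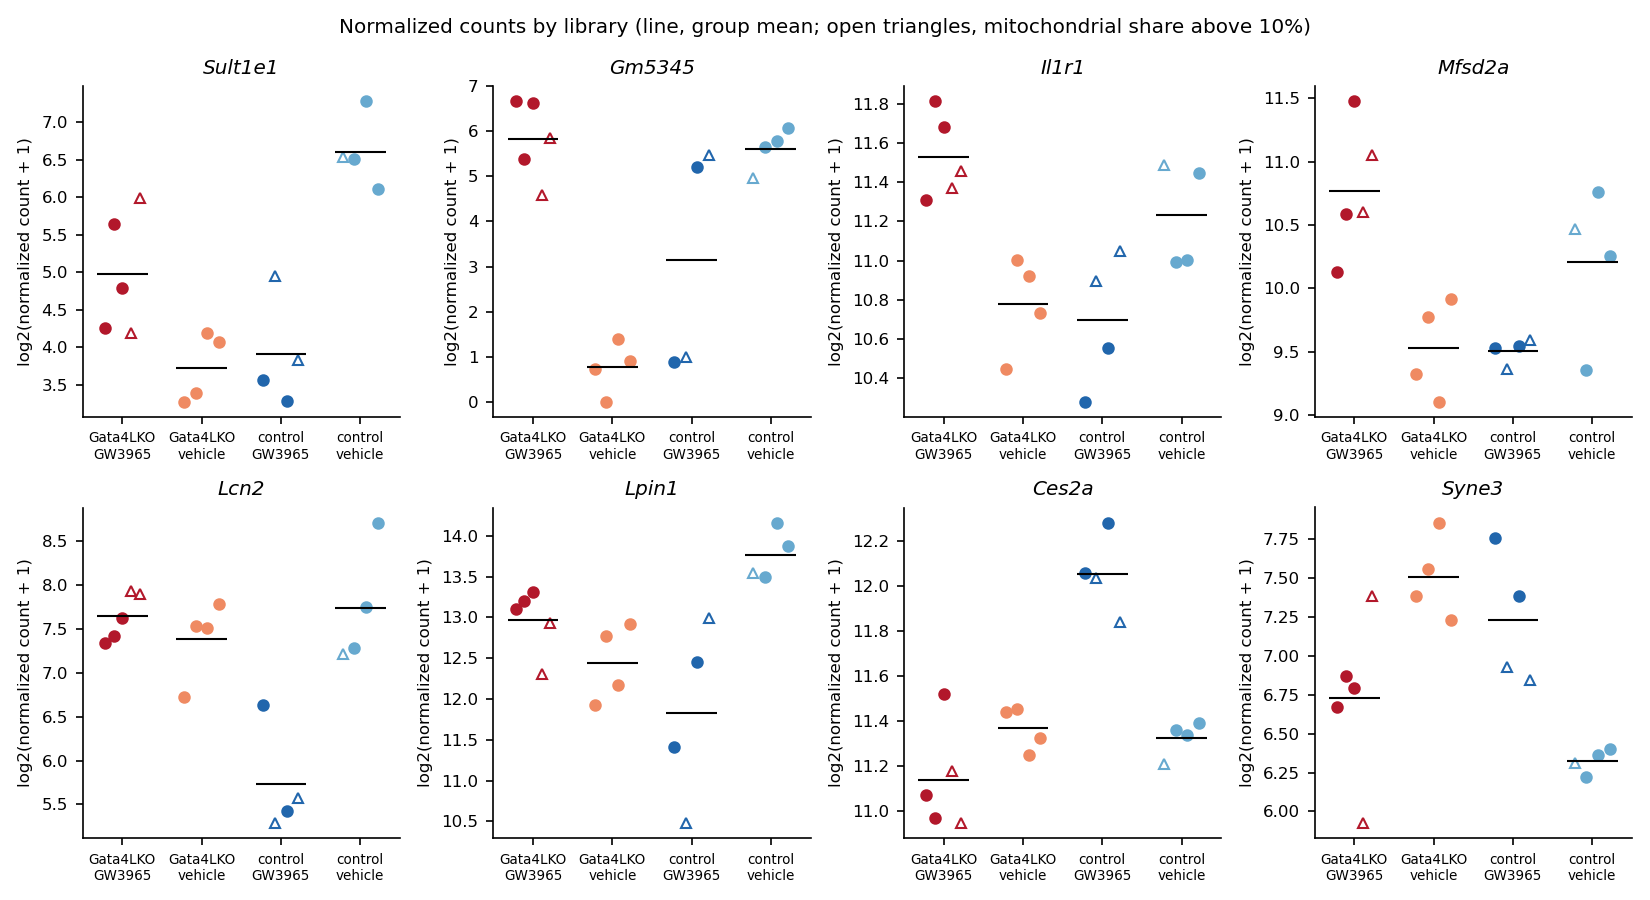
Normalized counts of 8 genes on the log2(normalized count + 1) scale (vertical axes) in each of the 17 libraries by group (horizontal axes), with group means as lines and libraries of high mitochondrial share as open triangles. Control vehicle libraries stand above all others in Sult1e1 and Lpin1, control GW3965 libraries stand above all others in Ces2a and below all others in Lcn2, and 6 libraries lie near 0 in Gm5345.

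Among genes with a more positive response in Gata4LKO-labelled livers, those next in order of p were not called by the limma adjusted p given here. The authors' deposited table called Il1r1, Mfsd2a, Lcn2, Gm37163, Adamtsl2, Cpm and Rad54l2 (adjusted p of 4.72e-04 to 0.0117). Il1r1, the interleukin-1 receptor, had 2538, 3602, 3291, 2646 and 2810 normalized counts in Gata4LKO GW3965 and 1395, 2053, 1939 and 1699 in Gata4LKO vehicle libraries. It had 1241, 1906, 1500 and 2117 in control GW3965 and 2869, 2039, 2053 and 2790 in control vehicle libraries. The Gata4LKO groups did not overlap and the control groups did, by 1 control GW3965 library. The difference was 1.29 ± 0.25 (limma adjusted p = 0.105), with responses of 0.75 ± 0.17 in Gata4LKO-labelled and -0.54 ± 0.18 in control livers. Mfsd2a, a transporter of lysophospholipids that carry docosahexaenoic acid, had 1117, 1534, 2853, 1555 and 2125 normalized counts in Gata4LKO GW3965 and 641, 877, 550 and 965 in Gata4LKO vehicle libraries. It had 738, 657, 747 and 770 in control GW3965 and 1414, 653, 1730 and 1221 in control vehicle libraries. Here too the Gata4LKO groups did not overlap and the control groups did, and the difference was 1.94 ± 0.39 (limma adjusted p = 0.149).

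Lcn2, the siderophore-binding acute phase protein lipocalin 2, had 161, 170, 197, 243 and 238 normalized counts in Gata4LKO GW3965 and 105, 185, 182 and 219 in Gata4LKO vehicle libraries. It had 98.3, 38.0, 42.0 and 46.5 in control GW3965 and 148, 155, 214 and 419 in control vehicle libraries. The control GW3965 libraries were below all other 13. Lcn2 fell with GW3965 in control livers, by 2.01 ± 0.33 on the log2 scale (limma adjusted p = 0.00793). Its response in Gata4LKO-labelled livers was 0.25 ± 0.31 (limma adjusted p = 0.730), and the difference of responses, 2.26 ± 0.45, was not called (limma adjusted p = 0.149). The others of this order were the unannotated transcript Gm37163 (2.96 ± 0.56), the secreted glycoprotein gene Adamtsl2 (1.57 ± 0.34), the membrane carboxypeptidase Cpm (1.13 ± 0.24) and the helicase Rad54l2 (1.09 ± 0.24), with limma adjusted p of 0.105 to 0.193.

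Lpin1, a phosphatidate phosphatase that also acts as a transcriptional coactivator in fasting, and Zbtb16, a zinc-finger repressor, were chosen after their values were seen. Lpin1 had 8781, 9386, 10177, 5070 and 7821 normalized counts in Gata4LKO GW3965 and 3883, 7019, 4594 and 7729 in Gata4LKO vehicle libraries. It had 2733, 1423, 5582 and 8134 in control GW3965 and 11952, 11552, 18333 and 14963 in control vehicle libraries. Control vehicle libraries were above all others. Lpin1 fell with GW3965 in control livers, by 1.94 ± 0.39 (limma adjusted p = 0.0284), and its difference of responses was 2.46 ± 0.54 (limma adjusted p = 0.220). That difference was called in the authors' deposited table (2.17, adjusted p = 0.0144) and in limma with library weights (adjusted p = 0.0102). It was also called without control GW3965 replicate 13 (limma adjusted p = 0.0320). Zbtb16 had 488, 1203, 1051, 748 and 1463 normalized counts in Gata4LKO GW3965 and 224, 442, 286 and 518 in Gata4LKO vehicle libraries. It had 208, 200, 796 and 1444 in control GW3965 and 1296, 1318, 1673 and 1525 in control vehicle libraries, and its difference was 3.03 ± 0.69 (limma adjusted p = 0.241). In both genes control GW3965 replicates 9 and 10, the 2 with Gm5345 near 0, were the lowest of their group. Gata6, a relative of Gata4, had 184, 185, 185, 316 and 243 normalized counts in Gata4LKO GW3965 and 120, 137, 98.5 and 85.9 in Gata4LKO vehicle libraries. It had 119, 167, 116 and 185 in control GW3965 and 254, 121, 140 and 162 in control vehicle libraries, and its difference was 1.17 ± 0.33 (limma adjusted p = 0.542).

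Ces2a had the smallest p of the genes with a more negative response in Gata4LKO-labelled livers. It encodes a carboxylesterase that hydrolyses drugs and acylglycerols, and lies on chromosome 8, 104734003 to 104741634, plus strand (ENSMUSG00000055730), next to near copies of itself. It had 2151, 2004, 2932, 2316 and 1969 normalized counts in Gata4LKO GW3965 and 2779, 2801, 2429 and 2566 in Gata4LKO vehicle libraries. It had 4267, 4199, 4985 and 3665 in control GW3965 and 2362, 2628, 2586 and 2683 in control vehicle libraries. The control GW3965 libraries were above all other 13. Ces2a rose with GW3965 in control livers, by 0.73 ± 0.12 (limma adjusted p = 0.0105), and its response in Gata4LKO-labelled livers was -0.23 ± 0.12 (limma adjusted p = 0.439). The difference of responses was -0.96 ± 0.17 (95% interval -1.32 to -0.60) and was not called (limma adjusted p = 0.0817). It stayed between -1.06 and -0.89 when single libraries were left out, and 2 of those 17 fits called it, those without Gata4LKO GW3965 replicate 16 and without control GW3965 replicate 13. DESeq2 on all 17 libraries called it (adjusted p = 4.24e-04). So did the authors' deposited table, whose calls were the same genes as those of DESeq2 here. Its promoter is shown in the same way as those above (plus strand, chr8:104733753-104734002), since it was the one protein-coding gene of smallest p with this sign.
Ces2a: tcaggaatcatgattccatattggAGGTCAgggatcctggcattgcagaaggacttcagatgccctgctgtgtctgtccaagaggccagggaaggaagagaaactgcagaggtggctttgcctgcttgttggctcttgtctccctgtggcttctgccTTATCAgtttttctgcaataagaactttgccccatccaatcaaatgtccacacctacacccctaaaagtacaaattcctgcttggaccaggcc
It held 1 receptor hexamer at -226 and 1 GATA word on the opposite strand at -93.

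Art2a, an ADP-ribosyltransferase of T cells with a near-identical neighbour, had 15.7, 18.8, 21.9, 15.4 and 8.93 normalized counts in Gata4LKO GW3965 and 72.1, 23.1, 27.9 and 7.01 in Gata4LKO vehicle libraries. It had 85.8, 28.0, 69.1 and 37.2 in control GW3965 and 6.32, 2.23, 3.78 and 2.91 in control vehicle libraries. The control vehicle libraries were below all other 13. Art2a rose with GW3965 in control livers, by 3.47 ± 0.54 (limma adjusted p = 0.00572), and its difference of responses was -4.09 ± 0.74 (limma adjusted p = 0.0817), called only without Gata4LKO vehicle replicate 8 among the fits that left out 1 library (-4.64, limma adjusted p = 0.0171). Syne3, which encodes nesprin-3, a link between the nuclear envelope and the cytoskeleton, had 101, 116, 110, 59.7 and 166 normalized counts in Gata4LKO GW3965 and 166, 188, 231 and 149 in Gata4LKO vehicle libraries. It had 216, 121, 166 and 114 in control GW3965 and 78.3, 73.5, 81.4 and 83.5 in control vehicle libraries. The control groups did not overlap, and the difference of -1.69 ± 0.35 was not called (limma adjusted p = 0.192). It was called without the 5 libraries rich in mitochondrial transcripts (-1.98, limma adjusted p = 0.0473). Also in this order were Sh3bgrl2 (-0.70 ± 0.15), the Rac exchange factor Tiam2 (-1.19 ± 0.26), the growth factor receptor Fgfr2 (-1.11 ± 0.27) and the lipoprotein-sorting receptor Sort1 (-1.14 ± 0.28). The transcript Gm45909 (-1.38 ± 0.35) and the pseudogene Mup-ps20 (-2.92 ± 0.75) came after them, at limma adjusted p of 0.192 to 0.403 for these 6. The authors' deposited table called Syne3, Sh3bgrl2, Tiam2, Fgfr2 and Gm45909 (adjusted p of 0.00316 to 0.0290), but not Sort1 or Mup-ps20. Sh3bgrl2, Tiam2 and Fgfr2 rose with GW3965 in control livers, by 0.49 ± 0.11, 0.83 ± 0.19 and 0.85 ± 0.19 (limma adjusted p = 0.0380, 0.0442 and 0.0498).

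The genes that answered GW3965 on average over both genotypes were then followed into the difference. GW3965 changed 33 genes in Gata4LKO-labelled livers (0.247%), of which 27 rose (0.202%) and 6 fell (0.0448%). It changed 106 in control livers (0.792%), of which 81 rose (0.605%) and 25 fell (0.187%). On average over the genotypes it raised 179 (1.34%) and lowered 59 (0.441%), 238 in all (1.78%). Choosing genes by the average left the choice nearly independent of the difference, with a design correlation of -0.0526. Of the 179 that rose, 117 (65.4%) had a smaller rise in Gata4LKO-labelled livers, against 50.6% of all genes with a negative difference. Their median response was 0.73 in Gata4LKO-labelled and 0.89 in control livers, and the median difference was -0.13. Of these genes, 20 had a smaller and 6 a larger rise at an unadjusted limma p below 0.05, and 0 were called in limma (0 with edgeR and 3 with DESeq2, each among its own responders that rose). Of the 59 that fell, 32 (54.2%) fell less in Gata4LKO-labelled livers, with a median difference of 0.01. For the genes that fell the share was 41.7% (median -0.07) without Gata4LKO GW3965 replicate 15 and 77.5% (median 0.28) without control GW3965 replicate 13. For the genes that rose, the same 2 omissions gave 14 smaller against 11 larger rises (median -0.08) and 28 against 1 (median -0.27). The share of smaller rises was 56.5% without Gata4LKO GW3965 replicate 15 and 75.0% without control vehicle replicate 3, the extremes of leaving out single libraries. Without the 5 libraries rich in mitochondrial transcripts it was 73.4%. Genes are not independent replicates, so no test is attached to these shares. Across all 13379 genes, the responses in the 2 genotypes, which share no library, had a Pearson correlation of 0.251 (Spearman 0.312).

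**Figure D3:**
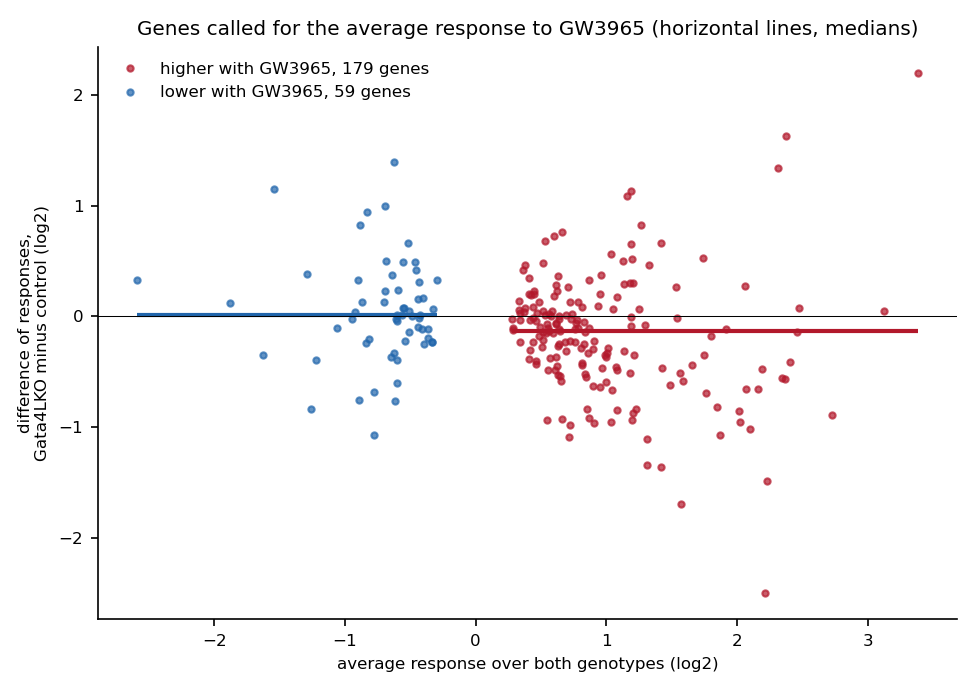
Difference of responses (vertical axis, log2, Gata4LKO minus control) against the average response over both genotypes (horizontal axis, log2) for the 179 genes that rose (red) and the 59 that fell (blue), each point a gene and each horizontal line a median. The medians lie at -0.13 and 0.01, close to the line at 0 compared with the spread of the genes.

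The strongest average responders were named by smallest p. Inmt, an N-methyltransferase of indole amines, rose by 1.18 ± 0.19 in Gata4LKO-labelled and 1.80 ± 0.20 in control livers (limma adjusted p = 0.0122 and 2.84e-04). Its difference of -0.62 ± 0.27 had an interval that ended just below 0 (-1.19 to -0.04) and was not called (limma adjusted p = 0.997). The peroxisomal β-oxidation enzymes Ehhadh and Acaa1b had differences of -0.41 ± 0.52 and -0.65 ± 0.42. That of Ehhadh was -0.06 without control GW3965 replicate 10 and -0.77 without control GW3965 replicate 9. The fatty acid elongase Elovl6 had -0.59 ± 0.33, the lipid droplet enzyme Hsd17b11 -0.51 ± 0.28 and the peroxisomal membrane protein Tmem135 0.02 ± 0.18. Scd2 responded by 2.38 ± 0.19 in Gata4LKO-labelled and 2.53 ± 0.20 in control livers, a difference of -0.15 (95% interval -0.74 to 0.45). Among the genes that fell, the cholesterol synthesis enzymes Sqle and Cyp51 had differences of -0.40 ± 0.40 and -0.02 ± 0.29. The plasma lipid transfer inhibitor Apof had 0.08 ± 0.17, and Gm26608, Tuft1 and Apon had 0.12, 0.04 and 0.08. Limma adjusted p was 0.997 or above for all of these.

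Of 24 listed LXR targets 23 were tested and 0 were called in limma for the difference. It was positive for 6 and negative for 17, with a median of -0.13 on the log2 scale beside -0.0041 over all genes. The median ran from -0.25 without Gata4LKO GW3965 replicate 16 to -0.08 without Gata4LKO GW3965 replicate 15, and the positive count from 2 without control GW3965 replicate 9 to 9 without control GW3965 replicate 10. With all libraries, 0 were positive and 2 were negative at an unadjusted limma p below 0.05. Over all 25 gene lists, which hold 414 tested genes, Sult1e1 was the 1 gene called in limma, edgeR called 0 and DESeq2 called 2 (Sult1e1 and Lcn2). At an unadjusted p below 0.05 there were 55, 52 and 56 of the 414, beside 622 of all 13379 genes (4.65%) in limma. The lists were chosen with earlier results of these data known, so these counts do not test for an excess in them. Limma with library weights called 6 (Sult1e1, Sult1d1, Lcn2, Foxo1, Tat and Igfbp1), with 91 at an unadjusted p below 0.05. Of all 13379 genes, that fit called 40 and had 1214 at an unadjusted p below 0.05. The count over all genes was 910 without the 5 libraries rich in mitochondrial transcripts and 815 without control GW3965 replicate 13. The median response of the LXR targets was 0.66 in Gata4LKO-labelled and 0.95 in control livers. GW3965 changed 5 and 12 of the 23 there, where it changed 0.247% and 0.792% of all genes. The 2 counts were not tested against each other. The receptors themselves had differences of -0.04 (95% interval -0.39 to 0.31) for Nr1h3 and 0.03 (-0.54 to 0.59) for Nr1h2. Nr1h3 averaged 811 ± 125 normalized counts in Gata4LKO GW3965, 898 ± 29.8 in Gata4LKO vehicle, 843 ± 58.7 in control GW3965 and 916 ± 91.1 in control vehicle libraries (SD, n = 5, 4, 4 and 4).

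Among the sterol exporters, the partners Abcg5 and Abcg8, which export sterols into bile, rose in both genotypes. Abcg8 rose by 1.25 ± 0.17 in Gata4LKO-labelled and 1.33 ± 0.18 in control livers (limma adjusted p = 0.00769 and 0.00279), and its difference was -0.08 (95% interval -0.61 to 0.46). For Abcg5 the difference was -0.09 (-0.76 to 0.58). Abca1, which loads cholesterol onto apolipoprotein A-I, had 6846, 5847, 8462, 6685 and 7401 normalized counts in Gata4LKO GW3965 and 3786, 3873, 4016 and 4010 in Gata4LKO vehicle libraries. It had 6088, 13612, 8804 and 6771 in control GW3965 and 3453, 4272, 3566 and 3663 in control vehicle libraries. No GW3965 library overlapped with a vehicle library, and the spread was widest in control GW3965. The difference was -0.33 (-0.87 to 0.20), and -0.10 without control GW3965 replicate 10, the highest library. For Abcg1, the macrophage exporter of cholesterol, it was -0.44 (-1.28 to 0.40), and -0.18 without that library.

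Among lipogenic and lipoprotein targets, Srebf1, the master regulator of fatty acid synthesis, had 3869, 2890, 9363, 2124 and 3406 normalized counts in Gata4LKO GW3965 and 1413, 1708, 1479 and 1037 in Gata4LKO vehicle libraries. It had 5884, 9011, 7986 and 2888 in control GW3965 and 670, 1283, 1732 and 1560 in control vehicle libraries. Srebf1 rose in control livers, by 2.26 ± 0.40 (limma adjusted p = 0.0136), its response in Gata4LKO-labelled livers was 1.44 ± 0.38 (limma adjusted p = 0.135), and the difference was -0.82 with a wide interval (-1.99 to 0.35). The intervals were wider still for the desaturase Scd1 (0.05, -1.68 to 1.79) and the fatty acid synthase Fasn (-0.65, -2.11 to 0.81). Lpcat3, which puts polyunsaturated chains into phospholipids, had -0.22 (-0.76 to 0.32), and the transfer protein Pltp -0.29 (-0.91 to 0.33). The LXR-induced ubiquitin ligases Rnf145 and Mylip had -0.46 (-1.10 to 0.18) and 0.13 (-0.53 to 0.79). Cyp7a1, the first enzyme of bile acid synthesis and an LXR target in mice, had -0.01 (-1.08 to 1.05).

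**Figure D4:**
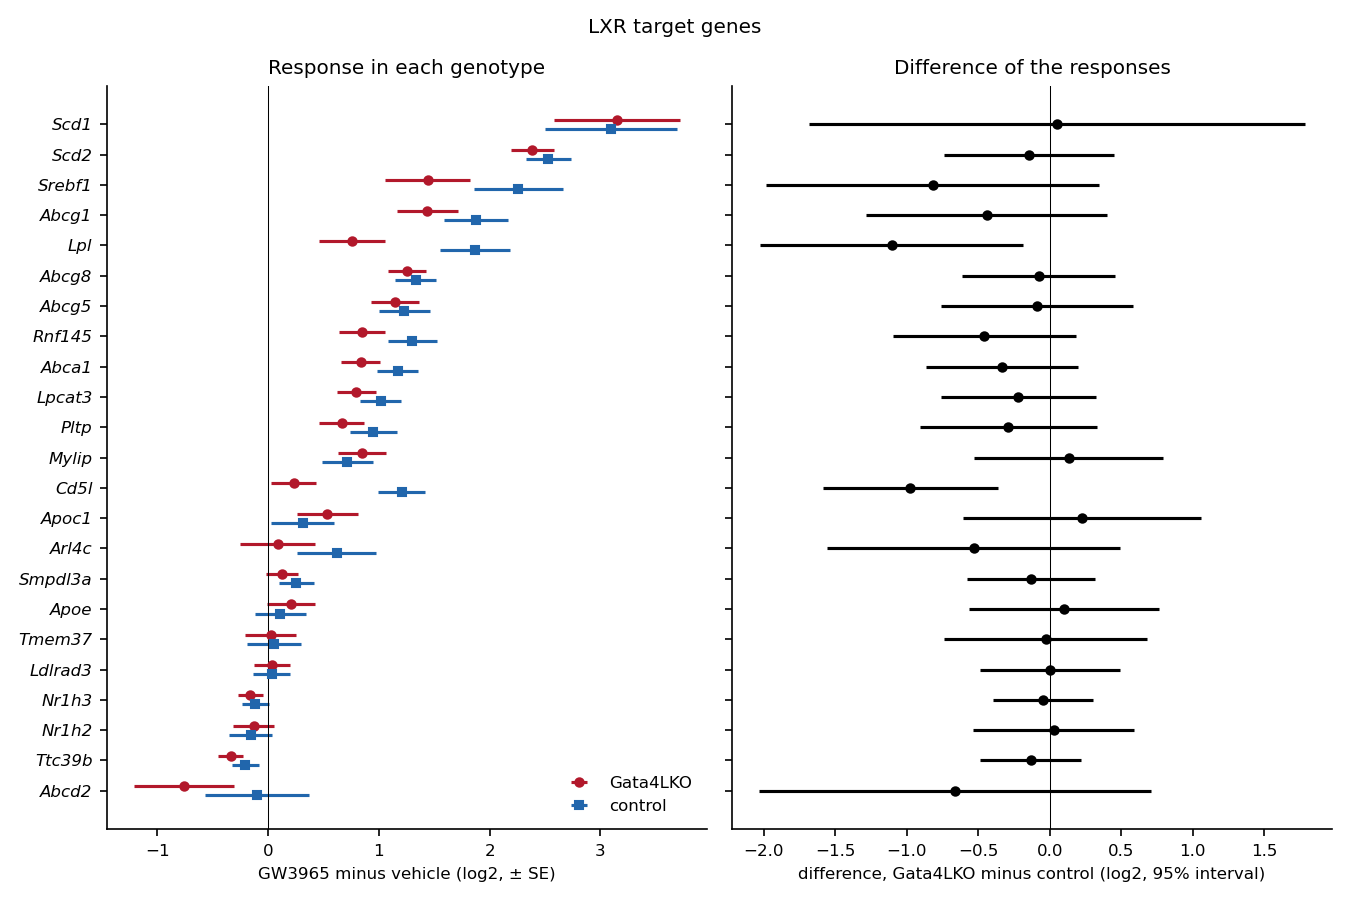
Responses of the 23 tested LXR targets in Gata4LKO-labelled (red circles) and control livers (blue squares) with standard errors (left, log2), and their difference with 95% intervals (right, log2, Gata4LKO minus control). Only the intervals of Lpl and Cd5l exclude 0, and both lie below it.

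Lpl and Cd5l were the 2 targets with an unadjusted p below 0.05. That count was 4 without control GW3965 replicate 13 or Gata4LKO GW3965 replicate 16, and 1 without control GW3965 replicate 10 or Gata4LKO vehicle replicate 6. Over all genes, the count in these fits was 815, 765, 592 and 509, in that order. Lpl, the lipoprotein lipase, had 348, 349, 482, 1029 and 449 normalized counts in Gata4LKO GW3965 and 251, 444, 266 and 228 in Gata4LKO vehicle libraries. It had 428, 1106, 703 and 816 in control GW3965 and 227, 171, 228 and 171 in control vehicle libraries. The control groups did not overlap, and the Gata4LKO groups did. The difference was -1.11 ± 0.44 (limma adjusted p = 0.976). Cd5l, a secreted protein of macrophages, had 1404, 1584, 1194, 933 and 1609 normalized counts in Gata4LKO GW3965 and 1125, 1260, 1187 and 945 in Gata4LKO vehicle libraries. It had 2019, 1200, 1580 and 978 in control GW3965 and 591, 608, 472 and 774 in control vehicle libraries, which were below all others. Its difference was -0.98 ± 0.29 (limma adjusted p = 0.652).

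Cd5l is also 1 of 15 Kupffer cell and macrophage markers, of which 14 had a negative difference, with a median of -0.65. Of these, 6 had an unadjusted limma p below 0.05 (all negative, 2.08% of all genes) and 0 were called in limma. Among them were the folate receptor Folr2 (-0.81 ± 0.32), the complement subunits C1qa (-0.77 ± 0.31), C1qb (-0.65 ± 0.28) and C1qc (-0.74 ± 0.34), and the growth factor receptor Csf1r (-0.60 ± 0.26). Clec4f and Vsig4, which define Kupffer cells, had -0.27 ± 0.23 and -0.03 ± 0.23. Summed over the 15 markers, normalized counts were 6126 to 8852 in Gata4LKO GW3965, 5927 to 6971 in Gata4LKO vehicle, 6020 to 9687 in control GW3965 and 3824 to 5189 in control vehicle libraries. The control vehicle libraries were lowest and the other groups overlapped. In bulk RNA, fewer cells of a type and less RNA per cell cannot be told apart. The count of 6 was 9 without the 5 libraries rich in mitochondrial transcripts, 1 without Gata4LKO vehicle replicate 6 and Gata4LKO GW3965 replicate 16, the libraries with the fewest genes, and 2 without control vehicle replicate 3. It was 3 without Gata4LKO vehicle replicate 6 and 3 without control GW3965 replicate 12. Over all genes, 910 were below 0.05 without the 5 libraries, 611 without both replicates 6 and 16, and 567 without control vehicle replicate 3, against 622.

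The list of fatty acid oxidation genes and PPARA targets had 30 of 34 negative differences, with a median of -0.19. With all libraries and no weights, 0 reached an unadjusted limma p of 0.05 (1 did with DESeq2 and 0 with edgeR). In limma with library weights 8 did, 2 positive and 6 negative, beside 1214 of all 13379 genes. Without control vehicle replicate 1 there were 7, all 7 negative, beside 579 of all genes. Leaving out any other single library gave 0 to 2. The median was -0.11 without control GW3965 replicate 10 and -0.12 without Gata4LKO GW3965 replicate 17, and 9 of 34 were positive without control vehicle replicate 2. Their median response was 0.33 in Gata4LKO-labelled and 0.60 in control livers, and GW3965 changed 3 and 6 of them there, beside 0.247% and 0.792% of all genes. Cyp4a14 and Cyp4a10, fatty acid ω-hydroxylases with near-identical paralogs, had -1.49 ± 1.01 and -0.95 ± 0.83. The thioesterase Acot1 had -1.02 ± 0.62, and the carnitine shuttle enzyme Cpt1a 0.12 ± 0.19. The exceptions above 1 were Pdk4, which spares glucose by blocking pyruvate dehydrogenase (1.13 ± 0.59), and the fasting hormone Fgf21 (2.27 ± 1.45). Lipogenesis genes had 14 of 20 negative differences (median -0.20, from -0.36 without control vehicle replicate 3 to -0.03 without control vehicle replicate 1). At an unadjusted limma p below 0.05 there were 0. There were 4 without Gata4LKO GW3965 replicate 16, 3 without control GW3965 replicate 13 and 1 without control vehicle replicate 3. With library weights there were 5, all negative (median -0.29), and without both Gata4LKO vehicle replicate 6 and Gata4LKO GW3965 replicate 16 there were 4. Over all genes, these fits had 1214 and 611 below 0.05. Cholesterol synthesis and uptake genes had 18 of 25 negative (median -0.11). There 1 reached an unadjusted limma p of 0.05, the sterol desaturase Sc5d (-0.45 ± 0.21, limma adjusted p = 0.997).

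Glucose metabolism genes leaned the other way, with 14 of 18 positive differences and a median of 0.46. Of these, 7 had an unadjusted limma p below 0.05, all positive (2.57% of all genes), and 0 were called in limma without library weights. With library weights the median was 0.92, and Foxo1, Tat and Igfbp1 were called (limma adjusted p = 0.0228, 0.0373 and 0.0451). The count of 7 was 4 without control GW3965 replicates 9 and 10. The median response was 0.24 in Gata4LKO-labelled and -0.23 in control livers. Foxo1, a transcription factor that raises gluconeogenesis, had 1977, 1998, 1686, 1730 and 1913 normalized counts in Gata4LKO GW3965 and 1387, 1480, 1156 and 1064 in Gata4LKO vehicle libraries. It had 1361, 1539, 1293 and 1866 in control GW3965 and 2106, 1411, 1933 and 1723 in control vehicle libraries. The Gata4LKO groups did not overlap, the control groups did, and the difference was 0.80 ± 0.20 (limma adjusted p = 0.351). The others were the tyrosine aminotransferase Tat (1.08 ± 0.35), the glycogen-targeting subunits Ppp1r3c (1.24 ± 0.42) and Ppp1r3b (0.95 ± 0.42), the insulin-suppressed Igfbp1 (1.55 ± 0.55), the coactivator Ppargc1a (1.12 ± 0.45) and Pck1, which commits carbon to gluconeogenesis (0.82 ± 0.39). The glucose transporter Slc2a2 had -0.04 ± 0.20 and the glycogen synthase Gys2 -0.40 ± 0.22.

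Acute phase genes had 22 of 23 positive differences, a median of 0.40 and 4 with an unadjusted limma p below 0.05 (all positive, 2.57% of all genes). In limma without library weights 0 were called. With library weights 9 had an unadjusted limma p below 0.05, all positive, beside 1214 of all 13379 genes. In that fit Lcn2 was called (limma adjusted p = 0.0427). The count of 4 was 8 without control GW3965 replicate 13, 7 without control GW3965 replicate 9 and 8 without the 5 libraries rich in mitochondrial transcripts. It was 3 without Gata4LKO vehicle replicate 5. Positive differences numbered 18 of 23 without Gata4LKO GW3965 replicate 17, and 19 without Gata4LKO vehicle replicate 5 or with library weights. Beside Lcn2, the 4 were the serum amyloid genes Saa1 (2.14 ± 0.62) and Saa2 (2.02 ± 0.68), which are close paralogs, and the hyaluronan-binding Itih3 (0.45 ± 0.18). Saa1 had 1354, 1913, 703, 1727 and 2838 normalized counts in Gata4LKO GW3965 and 565, 1090, 1166 and 1432 in Gata4LKO vehicle libraries. It had 621, 1629, 650 and 363 in control GW3965 and 1481, 4052, 1488 and 1801 in control vehicle libraries, and both pairs of groups overlapped. The metallothioneins Mt1 and Mt2 had 1.05 ± 0.51 and 1.21 ± 0.66, and the fibrinogen chains Fga, Fgb and Fgg 0.04, 0.06 and 0.12. The median response of the list was -0.05 in Gata4LKO-labelled and -0.33 in control livers.

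**Figure D5:**
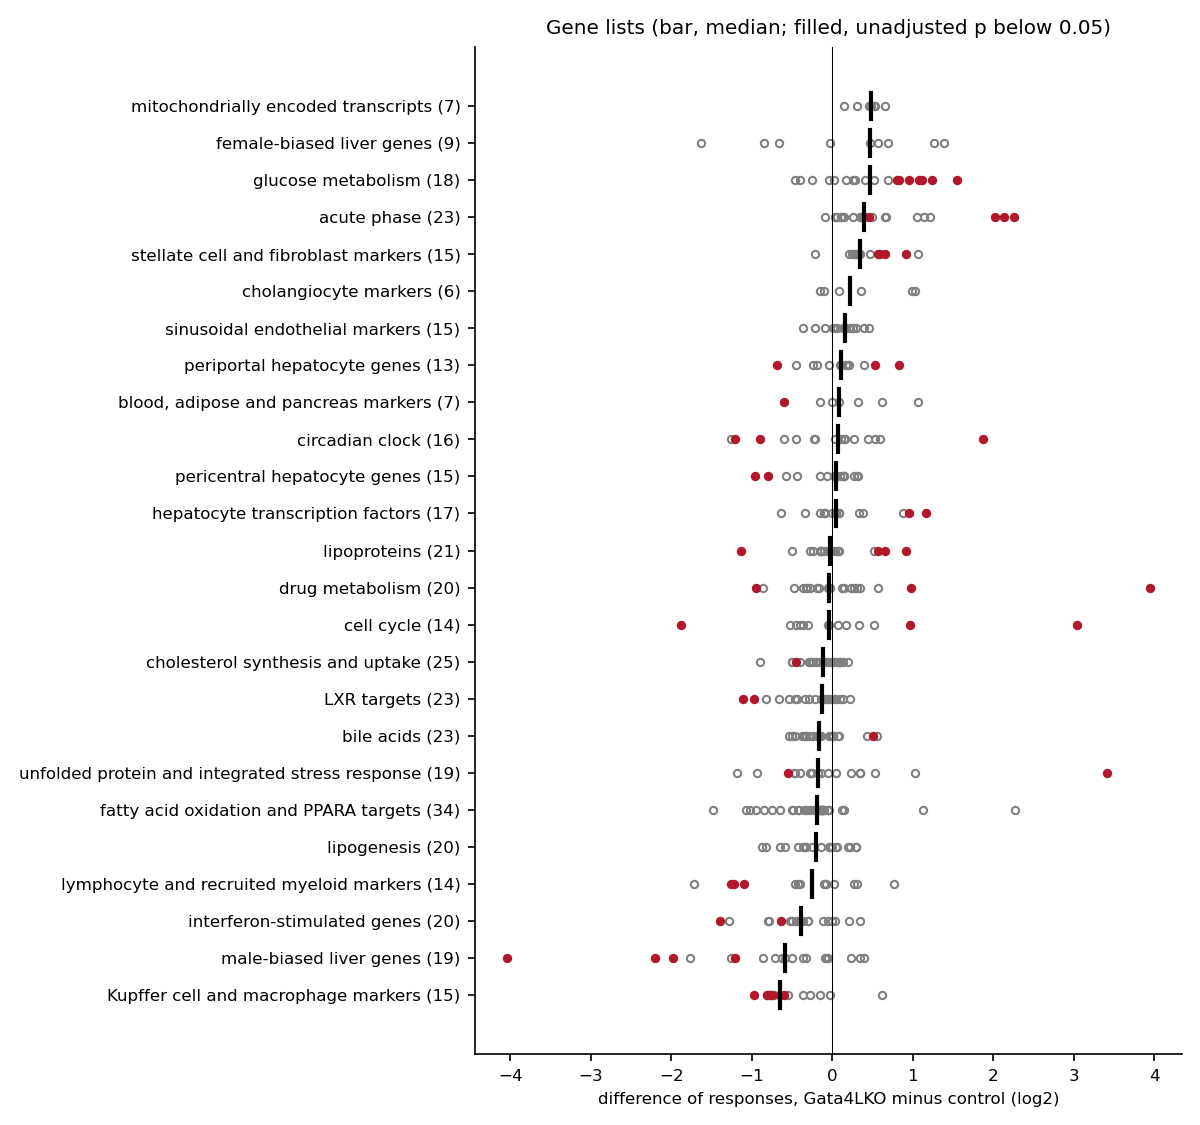
Difference of responses (horizontal axis, log2, Gata4LKO minus control) for the tested members of 25 gene lists (vertical axis, numbers tested in parentheses), with list medians as bars and members at an unadjusted limma p below 0.05 filled. Glucose metabolism (median 0.46) and acute phase (0.40) lie to the right, and male-biased genes (-0.59) and Kupffer cell markers (-0.65) to the left.

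Male-biased liver genes had 16 of 19 negative differences with a median of -0.59, and 4 had an unadjusted limma p below 0.05 (all negative, 2.08% of all genes). These were the steroid dehydrogenase Hsd3b5 (-1.98 ± 0.70), the coenzyme A hydrolase Nudt7 (-1.21 ± 0.43) and the urinary protein genes Mup20 (-2.21 ± 0.80) and Mup7 (-4.04 ± 1.50), whose many near copies make their counts uncertain. Hsd3b5 had 302, 735, 157, 189 and 72.5 normalized counts in Gata4LKO GW3965 and 970, 1549, 1148 and 621 in Gata4LKO vehicle libraries. It had 1047, 1159, 1087 and 563 in control GW3965 and 690, 1734, 1486 and 821 in control vehicle libraries. Of the Gata4LKO GW3965 libraries, 4 of 5 were below every other library. Without the 5 libraries rich in mitochondrial transcripts, the list had 6 positive differences and a median of -0.26, and without control GW3965 replicate 10 the median was -0.39. Female-biased genes, 9 tested, had 5 positive differences and 0 with an unadjusted limma p below 0.05.

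Markers of other liver cells were read in the same way, with 0 called in any of these lists by limma. Stellate cell and fibroblast markers had 14 of 15 positive differences, a median of 0.34 and 4 with an unadjusted limma p below 0.05 (all positive, 2.57% of all genes). Des, the intermediate filament protein desmin, had 43.2, 52.3, 75.6, 44.3 and 73.7 normalized counts in Gata4LKO GW3965 and 30.7, 30.5, 28.7 and 34.2 in Gata4LKO vehicle libraries. It had 30.8, 38.0, 40.2 and 45.2 in control GW3965 and 40.4, 41.2, 41.6 and 38.8 in control vehicle libraries, and its difference was 0.92 ± 0.30. The Gata4LKO groups did not overlap, and the control groups did. Dcn, a matrix proteoglycan (0.56 ± 0.21), Reln (0.58 ± 0.21) and Hand2, a stellate cell transcription factor (0.66 ± 0.31), were the others. Summed over 16 markers, counts were 6570 to 9290 in Gata4LKO GW3965, 5104 to 6721 in Gata4LKO vehicle, 5100 to 6559 in control GW3965 and 5018 to 5971 in control vehicle libraries. Without the 5 libraries rich in mitochondrial transcripts the list median was 0.17 and the count of 4 was 2. The median was 0.59 without control GW3965 replicate 12, 0.57 without Gata4LKO GW3965 replicate 16 and 0.52 without Gata4LKO vehicle replicate 8. It was 0.26 without Gata4LKO vehicle replicate 6, the lowest value when single libraries were left out. Sinusoidal endothelial markers had 12 of 15 positive differences (median 0.16), and 0 reached an unadjusted limma p of 0.05. Lymphocyte and recruited myeloid markers had 10 of 14 negative ones (median -0.26), with 3 below 0.05 (all negative, 2.08% of all genes). Among the 3 were the antigen presentation genes Cd74 (-1.10 ± 0.43) and H2-Aa (-1.22 ± 0.54).

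Interferon-stimulated genes had 16 of 20 negative differences and a median of -0.39. An unadjusted limma p below 0.05 was reached by 2, all negative (2.08% of all genes), Irf7 (-0.63 ± 0.28) and Oasl1 (-1.40 ± 0.58). The viral RNA sensors Ifih1 and Ddx58 had 0.03 and 0.00. In the circadian clock list, 16 genes were tested and 9 were positive. Arntl, the activator BMAL1, had 1.88 ± 0.67 and its repressor Nr1d1 -1.21 ± 0.41 (limma adjusted p = 0.896 and 0.844). The medians of drug metabolism, bile acid, lipoprotein, pericentral, periportal, hepatocyte transcription factor, cell cycle and stress response genes lay between -0.18 and 0.11. Those of cholangiocyte and of blood, adipose and pancreas markers were 0.22 and 0.09. All 7 tested mitochondrially encoded transcripts had positive differences (median 0.49, 0 at an unadjusted limma p below 0.05), and the mitochondrial share differed between libraries as given above. Its part in the other differences was not tested beyond the fits without those 5 libraries and with the share as a covariate.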

How the data were processed

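Messenger RNA was sequenced from 17 liver libraries, and the labels do not state that each came from a separate mouse, so p-values measure the spread between libraries. Per the submitters' processing notes, STAR 2.6.0c aligned the reads to mm10, with FastQC and DESeq2 named beside it. Not given in the sources used here are the read counter, its annotation and its strand setting. The deposited values are a normalized signal, in which each library's reads were scaled by its own size factor: dividing by that factor's step put 100% of values within 0.05 of a whole read (largest distance 0.000342). For replicates 10 and 16 1 read is worth close to 1, and an automatic check of the step did not accept these 2 libraries. Their recovered reads were still used in the edgeR and DESeq2 fits. The authors' comparison table holds, per the file headers, a log2 fold change with its standard error and an adjusted p-value for each gene.

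Differences were fitted with limma 3.58.1 (limma-trend, R 4.3.3) on log2(normalized count + 1), as 4 group means over all 17 libraries, and p-values were adjusted by Benjamini-Hochberg over 13379 genes. The scale understates changes of low genes. Alternatives were edgeR 4.0.16 and DESeq2 1.42.0 on the recovered reads, TMM scaling, equal totals over genes not mitochondrially encoded, a pseudocount of 5, no filter or a minimum of 50, library weights, the mitochondrial share as covariate, and leaving out libraries. The limma fit of the difference was tested on simulated data, and the alternatives were not. No library column was left without a sample.

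Named genes were those called, the 10 of smallest p per direction with a mean of at least 20 in a group, and 8 higher and 6 lower average responders. Added to these were 15 LXR genes, Gata4 and Gata6, 2 per list by test statistic, and the 5 of smallest adjusted p per direction in the authors' deposited table. Other list members are examples of those lists. A gene that the rule names is not reported here. The comparison, its 25 gene lists and these rules were chosen with earlier results of these data known. Positions came from GENCODE M21 (mm10), promoters from RefSeq (GRCm38.p6).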

Additional observations from a re-analysis of the deposited data

Results flagged for a closer look

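Sult1e1 and Gm5345 were the genes limma called for the difference of responses, at 3.95 and 7.54 on the log2 scale (limma adjusted p = 0.0374 for each). On the recovered reads edgeR called 0 genes and DESeq2 26. Of the 17 fits that left out 1 library, 4 called Sult1e1 and 3 called Gm5345. Gm5345 was split within control GW3965, at 0.833, 1.00, 35.8 and 43.8 normalized counts. Among 24 genes in 4 groups each, 96 groups in all, 2 had a library far from the others of its group, and a further check of the mitochondrial share gave 1 more, where chance alone gives about 1 in 20 groups. Gm16348 had 0.667 normalized counts in Gata4LKO vehicle replicate 5, the value of 1 read, and 0 in the other 3 libraries of that group. Mup-ps20 had 42.5 normalized counts in control GW3965 replicate 13, against 16.7 to 17.5 in the other 3. Mitochondrially encoded transcripts took 19.0% of counts in control vehicle replicate 1, against 6.26% to 6.61% in the other 3.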

How the results depend on the processing

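Alternatives were chosen with the tests, except 2 that were chosen after seeing the data: leaving out control GW3965 replicates 9 and 10, and leaving out Gata4LKO vehicle replicate 6 and Gata4LKO GW3965 replicate 16. The cause of the changes below was not tested. The count of 2 genes with a difference of responses was 2 again under a pseudocount of 5, TMM scaling and equal totals without mitochondrially encoded genes. It was 0 with a minimum of 50 (473 at an unadjusted p below 0.05), 0 with edgeR (621), 26 with DESeq2 (695) and 40 with library weights (1214). It was 1 without the 5 libraries rich in mitochondrial transcripts (910), 4 with their share as a covariate (927) and 0 without replicates 6 and 16 (611). Leaving out 1 library gave 0 to 9, the most without control GW3965 replicate 13. Genes called for GW3965 in Gata4LKO-labelled livers were 195 with DESeq2, 355 with weights, 70 without replicates 9 and 10, 4 without replicates 6 and 16, and 6 to 78 without 1 library, against 33. In control livers they were 57 with no filter, 228 with DESeq2, 247 with weights, 63 without the 5 libraries, 202 with the covariate, 18 without replicates 9 and 10, and 22 to 129 without 1 library, against 106. For the average response they were 527 with DESeq2, 667 with weights, 141 without replicates 9 and 10, and 142 to 334 without 1 library, against 238.

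Of 95 named genes, 15 changed the sign of their difference under at least 1 alternative. With TMM scaling, the difference was -0.0075 for Tmem135 and -0.0007 for Nr1h2. With edgeR, the difference was 0.017 for Cyp51. With DESeq2, the difference was 0.031 for Cyp51. With weights, the difference was -0.083 for Tmem135, -0.37 for Scd1, -0.011 for Mylip, 0.046 for Nr1h3, -0.079 for mt-Nd5 and -0.084 for mt-Cytb. Without the 5 libraries rich in mitochondrial transcripts, the difference was 0.086 for Abcg8, -0.095 for Tuft1, 0.16 for Abcg5, 0.092 for Nr1h3 and -0.020 for Nr1h2. With the covariate, the difference was 0.018 for Nr1h3. Without replicates 9 and 10, the difference was -0.011 for Tmem135, 0.022 for Cyp51, -0.011 for Tuft1, -0.058 for Apon and -0.37 for Mylip. Without replicates 6 and 16, the difference was -0.072 for Tmem135, 0.013 for Cyp51, -0.32 for Scd1, -0.046 for Nr1h2 and 0.11 for Cyp7a1. Leaving out 1 library at a time, it ranged from -0.29 to 0.021 for Abcg5, from -0.22 to 0.067 for Abcg8, from -0.064 to 0.15 for Apon, from -0.20 to 0.12 for Cyp51, from -0.33 to 0.26 for Cyp7a1, from -0.072 to 0.37 for Gm26608, from -0.10 to 0.31 for Mylip, from -0.11 to 0.21 for Nr1h2, from -0.11 to 0.050 for Nr1h3, from -0.49 to 0.48 for Scd1, from -0.31 to 0.0031 for Scd2, from -0.037 to 0.12 for Tmem135 and from -0.093 to 0.23 for Tuft1. No paired analysis was possible because no replicate number is shared between groups. With 4 or 5 libraries a group the median standard error of the difference was 0.304 at 11.76 M reads or more per library, and a p that misses the threshold does not show equal responses.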

Other observations

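Other liver gene groups held single genes with sizeable differences of responses, none of them called by limma. Asns, the asparagine synthetase of the integrated stress response, had 3.42 ± 1.40 on the log2 scale, and Cdkn1a, the cell cycle inhibitor p21, had 3.04 ± 0.96 (limma adjusted p = 0.996 and 0.734). Xbp1, a transcription factor of the unfolded protein response, had -0.56 ± 0.20, and Rrm2, a ribonucleotide reductase subunit of dividing cells, had 0.97 ± 0.43 (limma adjusted p = 0.900 and 0.997). Of the pericentral genes, the Wnt feedback ligase Rnf43 had -0.96 ± 0.29 and Tbx3 had -0.80 ± 0.36, the 2 of largest test statistic. Of the 15 pericentral genes tested, 9 had a positive difference (median 0.05). The periportal Cyp2f2 had -0.68 ± 0.26 and the urea cycle enzyme Asl, also periportal, 0.54 ± 0.24. Limma adjusted p was 0.658 to 0.997 for these named zonation genes. Foxa2, a pioneer factor of hepatocytes, had 0.95 ± 0.45 (limma adjusted p = 0.997). Apoa5, which aids the clearance of triglyceride-rich lipoproteins, had 0.65 ± 0.23, and Akr1d1, a reductase of bile acid synthesis, had 0.51 ± 0.20 (limma adjusted p = 0.896 and 0.981). Alas2, the haem synthesis enzyme of red cells, had -0.60 ± 0.28 (limma adjusted p = 0.997).

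The authors' deposited table also called Il6ra, the interleukin-6 receptor, at 1.00 on the log2 scale (adjusted p = 0.0416), where limma gave 1.03 (adjusted p = 0.293). It was picked out after its values were seen, beside the interleukin-1 receptor Il1r1.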
